A study of Mus musculus with 15 samples.

Results

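The Hox and Iroquois (Irx) homeobox genes were followed across a mouse mammary epithelial line and the lines derived from it. Members were all genes whose symbol is Hox followed by a cluster letter from a to d and a number, or Irx followed by a number from 1 to 6. The RefSeq gene table holds 45 such symbols, and 39 of them had a probe set of their own among the 18193 genes measured. These were 9 of 11 Hoxa genes, 9 of 10 Hoxb genes, 7 of 9 Hoxc genes, 8 of 9 Hoxd genes and all 6 Irx genes. The others had none. Where a member had several probe sets, the one with the highest mean signal was used.

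Gene expression was measured on 15 Affymetrix mouse arrays, 3 from each of 5 lines, as log2 signals. NMuMG is a wild-type, non-tumorigenic epithelial line from normal mouse mammary gland. E1KD is NMuMG in which hnRNP E1, a protein that binds RNA and is the product of Pcbp1, was silenced, and it is tumorigenic. M1P was isolated from an E1KD tumour of the mammary fat pad (passage 1), L1P from lungs of mice whose fat pad had been injected with E1KD (passage 1), and L2P from lungs of mice that had received L1P (passage 2). The hosts were NOD/SCID mice, which lack working B and T cells. All 4 silenced lines carry the same silencing, and no line with a control vector was analysed here, so silencing and derivation of the line cannot be told apart. Each condition is represented by a single line, and the labels do not say whether its 3 arrays came from separate cultures, so the spread behind the p-values may be technical.

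Hox genes encode transcription factors with a homeodomain, and they lie in 4 clusters in which the order of the genes follows the order of their expression along the body axis. Low paralog numbers are used toward the head and high numbers toward the tail and the limb tips. Adult epithelia retain part of this code as a record of position, and several Hox genes take part in mammary gland development. Irx genes encode homeodomain proteins of the TALE class and lie in 2 clusters, Irx3, Irx5 and Irx6 in one and Irx1, Irx2 and Irx4 in the other. They pattern the heart, the limb bud and the neural tube among other tissues.

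Pcbp1 was read between 12.57 and 12.76 on the NMuMG arrays and between 7.95 and 10.09 on the 12 arrays of silenced lines. Arrays of a line correlated over all genes at 0.9829 to 0.9976 in 4 lines and at 0.9198 to 0.9759 in M1P. M1P arrays 1 and 2 stand apart from the other arrays. The median SD over the 3 arrays was 0.20 for members in M1P and 0.13 to 0.15 in the other lines. Over all genes it was 0.32 in M1P and 0.14 to 0.19 in the other lines. The members' results that rest on M1P are therefore also given with M1P array 3 alone, as are those of the other genes named in M1P, a fit in which that single array is taken to vary like the other lines.

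The data hold no detection calls, so a low signal was judged against 77 genes of the olfactory, vomeronasal and taste receptor families, which epithelial lines are not known to use. The 95th percentile of their signals over the 15 arrays, 4.43, is called the off-gene level. Of 10 mammary epithelial markers, 7 or 8 lay above it in every line, with Cldn4 and Krt14 below it throughout. By this description 13 of 39 members (33.3%) had a line mean above the level in at least 1 line, against 64.3% of all genes. A total of 5 members lay above it in all 5 lines, namely Hoxa5, Hoxa7, Hoxa9, Hoxc9 and Irx5. Hoxa10 did so in the 4 silenced lines, Hoxb3 in all lines but L1P, and Hoxb4, Hoxc6 and Irx3 in NMuMG, E1KD and M1P. Hoxb13 was above it in NMuMG and E1KD, Hoxb6 in NMuMG alone and Hoxd13 in M1P alone. The number of members above the level was 11 in each of NMuMG, E1KD and M1P, 6 in L1P and 7 in L2P. Several of these lay close to the level: Hoxb3 averaged 4.40 in L1P, Irx3 4.35 in L1P, and Hoxd13 4.72 in M1P and 4.35 in NMuMG. Hoxb4 averaged 4.49 in E1KD and 4.19 in L1P, and Hoxc6 averaged 4.50 and 4.27. The share of all genes above the level in each single line is not given, so the lower counts in the lung lines are not read as particular to the members.

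The other 26 members stayed at or below the level in every line mean. Their signals ran from 2.03 to 4.77, and their line means spanned between 0.08 and 0.97. They include Hoxb1, Hoxb2, Hoxc8, Hoxc10, Hoxd10 and all other Hoxd genes except Hoxd13. With a stricter level, the 99th percentile of the same families at 5.45, 7 members remained above it, and the share of all genes above that level is not given. A signal below either level shows only that the probe set was not distinguished from genes thought to be off.

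**Figure D1:**
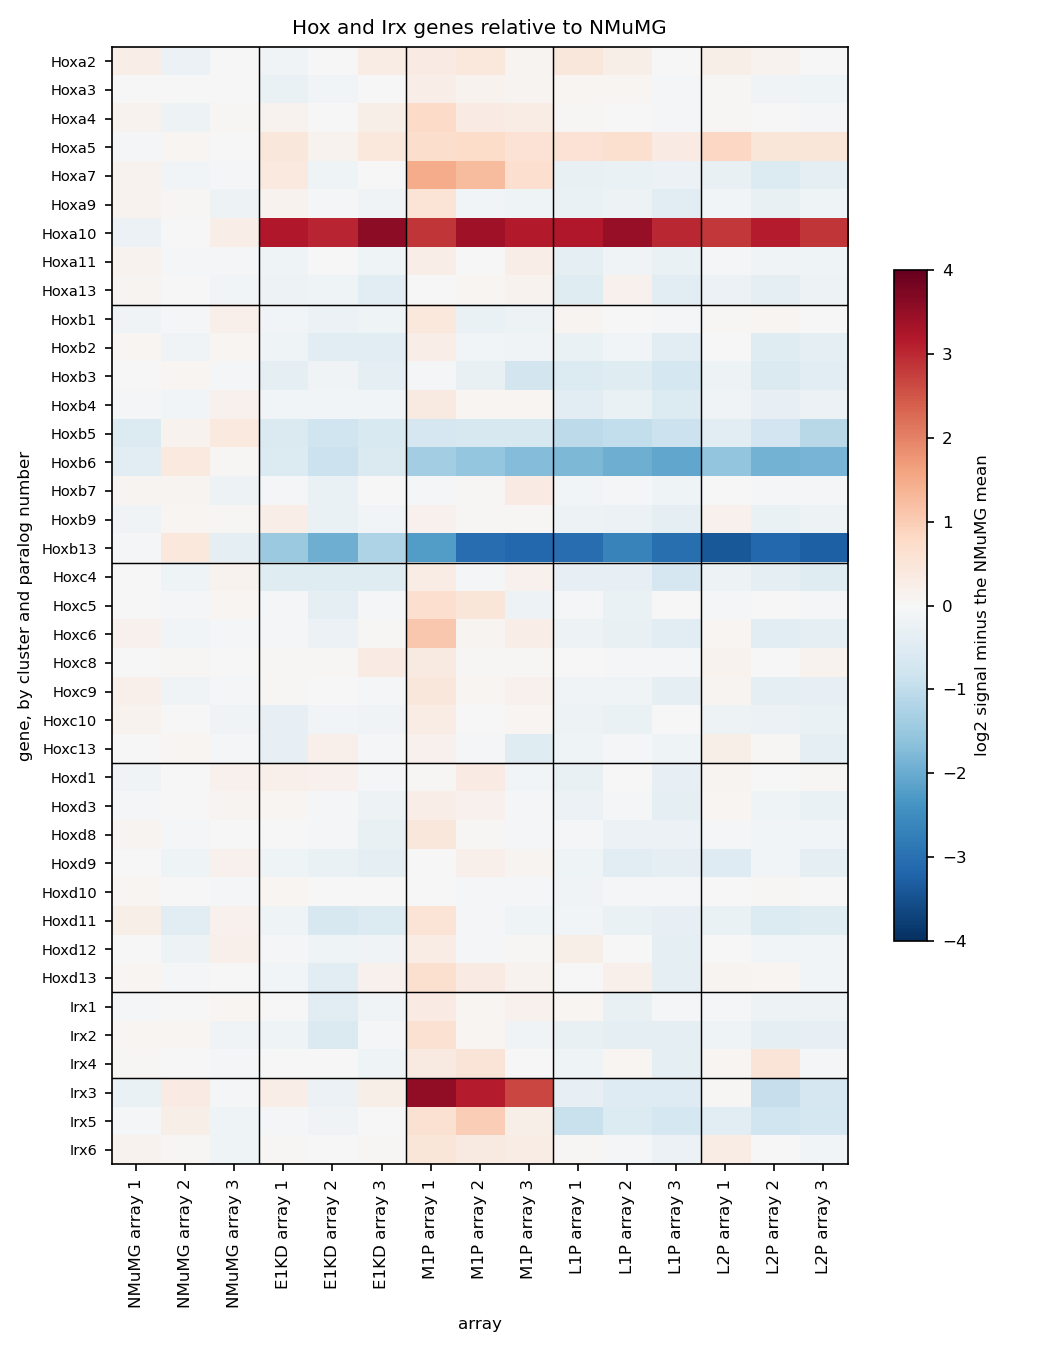
Each row is 1 of the 39 members, ordered by cluster and paralog number, each column is 1 of the 15 arrays, and colour gives the log2 signal minus the gene's mean over the 3 NMuMG arrays. Hoxa10 is raised on all 12 arrays of silenced lines, Hoxb13 and Hoxb6 are lowered on them, and Irx3 is raised on the 3 M1P arrays.

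Over the 5 lines, 10 members differed by limma's moderated F test at an adjusted p under 0.05, which is 25.6% of the members, against 31.8% of all genes. They were Hoxa5, Hoxa7, Hoxa10, Hoxb4, Hoxb5, Hoxb6, Hoxb13, Hoxc4, Irx3 and Irx5. Among the 4 silenced lines 9 members differed, 23.1%, against 27.4% of all genes, and the count was 5 without M1P array 1. The share of all genes in that fit is not given, so the lower count is not read as particular to the members. A total of 6 members had line means that spanned at least 1 log2 unit: Irx3 3.63, Hoxa10 3.28, Hoxb13 3.26, Hoxb6 1.95, Hoxa7 1.53 and Irx5 1.32. Neither test called a Hoxd gene.

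**Figure D2:**
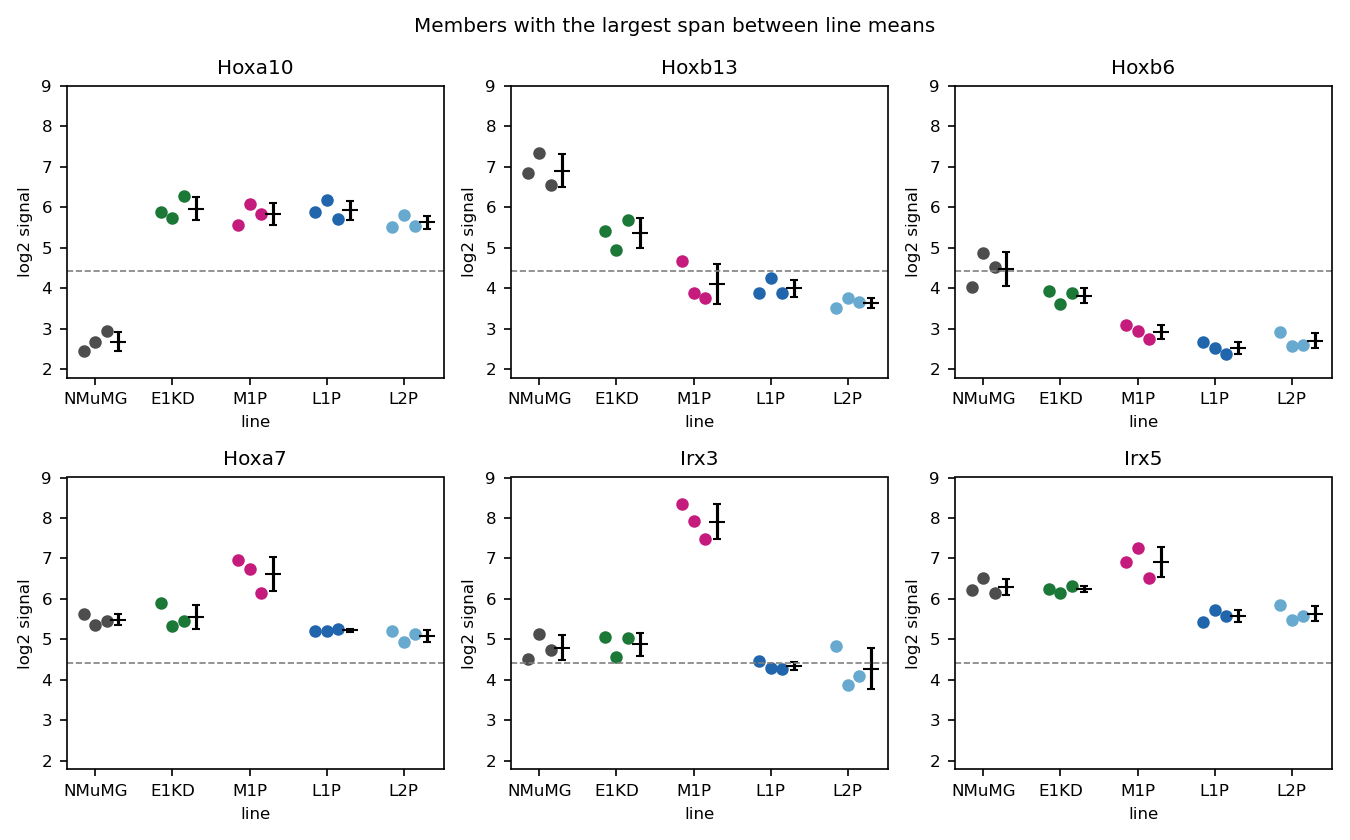
Points are the log2 signals of the 3 arrays of each line for the 6 members with the largest span, the horizontal mark with its bar is the mean ± SD, and the dashed line is the off-gene level of 4.43. Hoxa10 separates NMuMG from the silenced lines, and Irx3, Irx5 and Hoxa7 are highest in M1P. The means of Hoxb13 and Hoxb6 step down from NMuMG to E1KD to the passaged lines, but the Hoxb6 step from NMuMG to E1KD was not called.

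The comparison of E1KD with NMuMG asks how the code of the parental line differs once hnRNP E1 is silenced. Hoxa10, a posterior Hox gene known for its role in uterine and limb development, rose by 3.28 on the log2 scale. Hoxb13, the most posterior gene of its cluster and a known regulator of prostate epithelium, fell by 1.55. Hoxc4, an anterior gene of the Hoxc cluster, fell by 0.48. These 3 of 39 members were called (7.69%), against 9.49% of all genes, and the members' median difference was -0.11, against -0.07 for all genes. None of the 6 Irx genes was called, and none had an unadjusted p under 0.05 in limma, against 21.3% of all genes.

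Hoxa10 (Entrez gene 15395, chromosome 6) gave log2 signals of 2.46, 2.67 and 2.94 on the NMuMG arrays. On the E1KD arrays it gave 5.90, 5.73 and 6.28. All E1KD arrays lay above the off-gene level and all NMuMG arrays far below it, with no overlap. The difference was 3.28 ± 0.19 (SE), a 9.69-fold change on the signal scale, with an adjusted p of 1.78e-07 from limma. The call held under all 24 alternatives tried, with adjusted p-values from 2.67e-09 to 2.5e-05. The fold may be compressed by the low NMuMG signal. In bulk RNA, fewer cells that use a gene and less RNA per cell cannot be told apart.

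Hoxa10 lies between Hoxa9 and Hoxa11 in its cluster, and neither neighbour was called. The Hoxa9 probe set of the highest mean read 5.19 ± 0.19 in NMuMG and 5.17 ± 0.15 in E1KD (SD, n = 3). Hoxa11, which is known from limb and uterine patterning, stayed between 2.82 and 3.47 on all 15 arrays. A second Hoxa10 probe set did not move with the first: it read 2.44 in NMuMG and 2.70 in E1KD on average, a difference of 0.26 ± 0.14 with an adjusted p of 0.351 in limma's fit of every probe set on its own, and it stayed between 2.16 and 2.84 on all arrays. The 2 probe sets of this gene thus disagree, and which transcripts each one reads was not tested.

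The RefSeq promoter table (GRCm38.p6) holds 2 start sites for Hoxa10 and 1 for Hoxa5, a neighbour in the cluster whose second probe set also rose. The 250 bases before each start are shown as the start regions listed for Hoxa10, which rose in E1KD, and for Hoxa5, which as a gene was not called. They are written 5′ to 3′ on the minus strand of chromosome 6, at chr6:52240855-52241104 for the first Hoxa10 start, chr6:52234940-52235189 for the second and chr6:52204588-52204837 for Hoxa5. Capitals mark 4 short motifs searched on both strands: the TATA box (TATAAA), the CCAAT box, the GC box (GGGCGG) and the core that many homeodomains bind (TAAT). A match on the other strand appears as its reverse complement.
Hoxa10 start 1: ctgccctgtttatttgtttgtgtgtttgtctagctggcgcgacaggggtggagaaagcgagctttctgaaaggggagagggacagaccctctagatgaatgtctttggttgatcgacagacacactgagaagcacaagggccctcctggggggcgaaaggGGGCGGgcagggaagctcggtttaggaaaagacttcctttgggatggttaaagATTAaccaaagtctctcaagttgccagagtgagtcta
Hoxa10 start 2: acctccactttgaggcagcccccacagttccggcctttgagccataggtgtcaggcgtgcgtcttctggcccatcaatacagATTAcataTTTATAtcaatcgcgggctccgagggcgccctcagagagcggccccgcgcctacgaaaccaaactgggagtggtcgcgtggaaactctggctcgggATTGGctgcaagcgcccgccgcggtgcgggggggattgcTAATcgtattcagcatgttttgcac
Hoxa5: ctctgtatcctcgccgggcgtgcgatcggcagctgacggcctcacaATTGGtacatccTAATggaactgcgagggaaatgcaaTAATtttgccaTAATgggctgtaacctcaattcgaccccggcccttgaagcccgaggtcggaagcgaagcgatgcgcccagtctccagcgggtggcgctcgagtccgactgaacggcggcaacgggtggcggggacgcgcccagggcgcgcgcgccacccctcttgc

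The window at the first Hoxa10 start held 1 GC box and 1 homeodomain core. The second start held 1 TATA box, 1 CCAAT box and 2 homeodomain cores, and Hoxa5 held 1 CCAAT box and 3 homeodomain cores. CpG pairs numbered 7, 20 and 28 in the same order, against a median of 13 over the 24 promoters of 22 members in the table and 6 over all 32851 promoters. The homeodomain core occurred in 17 of the 24 member promoters (70.8%) and in 54.9% of all windows of the same length. A CCAAT box occurred in 12 (50.0%) against 33.8%, a GC box in 10 (41.7%) against 32.7%, and a TATA box in 2 (8.33%) against 12.4%. A match describes the letters in the window and does not show a bound site. Hoxb13, Hoxb6 and Irx5 have no entry.

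Hoxa5, known for lung and mammary epithelial roles, differed between its probe sets. The set of the highest mean read 5.61, 5.78 and 5.67 in NMuMG and 6.13, 5.82 and 6.11 in E1KD. The NMuMG arrays were the lower ones, but the difference of 0.33 was not called (limma adjusted p 0.163). Its other probe set read 4.38, 4.13 and 4.0 in NMuMG and 5.87, 5.70 and 6.0 in E1KD, again without overlap. When each of 45037 probe sets was tested on its own, an analysis chosen after seeing the data in which 6.3% of probe sets were called, this set rose by 1.68 ± 0.13, 3.21-fold, with an adjusted p of 5.99e-06. It kept that call under all 20 alternatives run for probe sets.

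The second Hoxa9 probe set read 3.33, 3.20 and 3.40 in NMuMG and 3.80, 4.44 and 4.62 in E1KD. It was higher on all E1KD arrays, rising by 0.98 ± 0.25, 1.97-fold, with an adjusted p of 0.0312 in the same fit. The call was lost under 6 of 20 alternatives, among them the omission of any 1 NMuMG array, E1KD array 2 or E1KD array 3 (adjusted p 0.0732 to 0.131), and the first Hoxa9 set did not share the rise. Hoxa2, Hoxa3, Hoxa4, Hoxa7, Hoxa11 and Hoxa13 were not called in this comparison.

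Hoxb13 (Entrez gene 15408, chromosome 11) gave 6.85, 7.34 and 6.55 on the NMuMG arrays and 5.43, 4.96 and 5.69 on the E1KD arrays. All E1KD arrays were lower than all NMuMG arrays. The fall of 1.55 ± 0.26 is a 2.94-fold lower signal, with an adjusted p of 0.00202 from limma, and it was called under all 24 alternatives. The 9 Hoxb genes all had lower means in E1KD, with a median difference of -0.30, although Hoxb13 alone was called. Of all 18193 genes, 11107 had lower means in E1KD, with a median difference of -0.07. Hoxb6 (-0.66, adjusted p 0.0501) and Hoxb5 (-0.66, adjusted p 0.0764) missed the threshold, and Hoxb9 (-0.04) and Hoxb7 (-0.11) were close to 0. Without NMuMG array 1, which had the lowest NMuMG signal for both, Hoxb6 reached an adjusted p of 0.0088 and Hoxb5 of 0.00779.

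Some further Hoxb probe sets fell as well. The second Hoxb4 set was not called (-0.26, adjusted p 0.284 in limma's fit of single probe sets). The second Hoxb3 set, for a gene of hindbrain patterning, read 3.67, 4.72 and 3.99 in NMuMG and 3.03, 2.62 and 3.35 in E1KD, so all E1KD arrays were lower. It fell by 1.13 ± 0.24, 2.19-fold, with an adjusted p of 0.0113 in the fit of single probe sets, and lost its call without E1KD array 2 (0.0643). A set shared by Hoxb8 and Hoxb7 read 2.99, 3.14 and 3.35 in NMuMG and 2.39, 2.56 and 2.45 in E1KD. It fell by 0.69 ± 0.12 (adjusted p 0.00386), under all 20 alternatives too, while the set of Hoxb7 alone did not. All signals of this shared set lay below the off-gene level, and its reads cannot be split between the 2 genes.

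**Figure D3:**
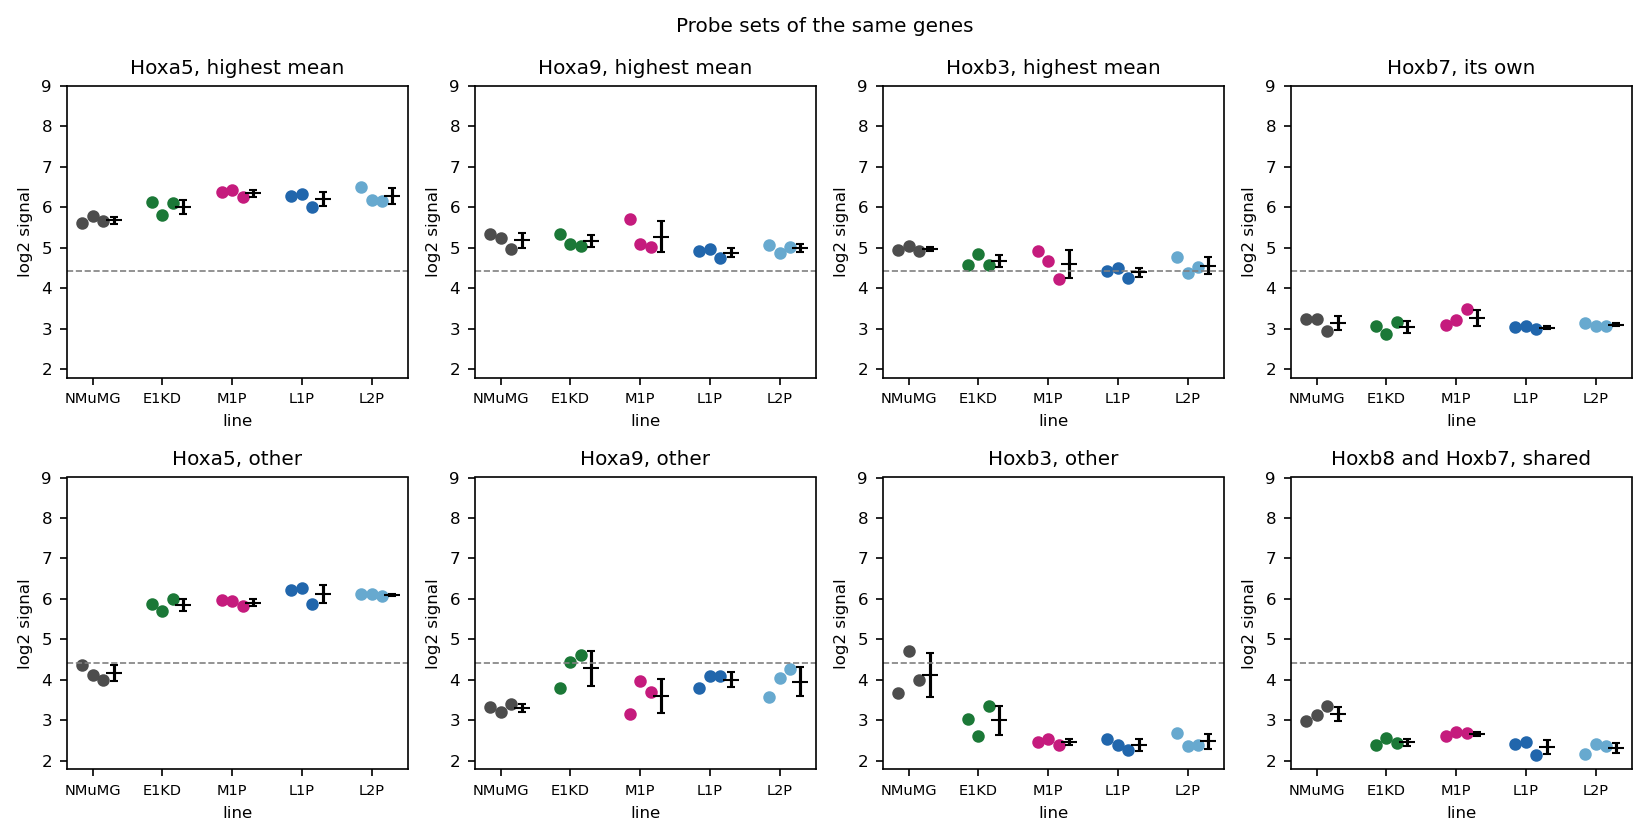
Log2 signals of 2 probe sets for each of Hoxa5, Hoxa9 and Hoxb3, and of the Hoxb7 set beside the set shared by Hoxb8 and Hoxb7, with the 3 arrays per line as points, the mean ± SD beside them and the off-gene level dashed. The lower-mean sets shown (bottom row) were each called on their own, so that they separate NMuMG from E1KD follows from that choice. The sets in the top row differ less. Lower-mean sets of other members, among them Hoxb4, were not called, and for Hoxa10 the highest-mean set rose and the second set was not called.

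Hoxc4 (Entrez gene 15423, chromosome 15) read 3.82, 3.63 and 3.95 in NMuMG and 3.31, 3.33 and 3.33 in E1KD. The E1KD arrays were lower and nearly identical to one another, and every value was below the off-gene level. Its fall of 0.48 ± 0.14 had an adjusted p of 0.0416 in limma and was called under 14 of 23 alternatives. It was lost without NMuMG array 1 or 3 or any 1 E1KD array (0.108 to 0.156), and without L1P array 1 or 2 or L2P array 2 or 3 (0.0519 to 0.0584). Hoxc9, which is known from thoracic patterning, read 6.35 ± 0.18 in NMuMG and 6.34 ± 0.07 in E1KD. Hoxc6 read 4.58 ± 0.16 and 4.50 ± 0.14 in the same lines (SD, n = 3). None of the 8 Hoxd genes was called, or had an unadjusted p under 0.05, between E1KD and NMuMG.

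Genes that act with or on Hox genes were read in the same comparison. Of all genes, limma called 9.49% there, and 21.3% had an unadjusted p under 0.05. Of 8 TALE cofactors of Hox proteins, Pbx4 rose by 0.72 (adjusted p 0.042) and no other was called. Of 15 Trithorax and other activators, Ash2l, a subunit of the H3K4 methyltransferase complexes, rose by 0.56 (adjusted p 0.00801). It was the only one of the 15 called by limma, though 8 had an unadjusted p under 0.05, and the list's median was 0.51 against -0.07 for all genes. None of 25 Polycomb repressive complex genes, which hold Hox clusters silent, was called by limma, though 5 had an unadjusted p under 0.05. Of 19 retinoic acid and Cdx genes, inputs known to switch Hox genes on, Cyp26b1 rose by 1.65, 3.14-fold (adjusted p 0.000189); it encodes an enzyme that degrades retinoic acid. Neither the 26 genes beside the clusters nor 19 other patterning homeobox and T-box genes gave a call, with 2 and 3 at an unadjusted p under 0.05.

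The passaged lines were compared with E1KD to ask whether its code persisted through growth in mice. Hoxa10 was not called against E1KD in any passaged line. Hoxb13 and Hoxb6 were lower than in E1KD in all 3. In the lung lines these were the only members called: 2 of 39 in L1P (5.13%), against 2.48% of all genes, and 2 of 39 in L2P (5.13%), against 3.78% of all genes. The 3 comparisons share the E1KD arrays, so they are not independent of one another.

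Hoxa10 read 5.56, 6.09 and 5.85 in M1P, 5.89, 6.18 and 5.72 in L1P, and 5.53, 5.82 and 5.54 in L2P. In each line the range of its arrays overlapped that of E1KD. Against E1KD the difference was -0.13 in M1P (95% interval -0.54 to 0.28), -0.04 in L1P (-0.45 to 0.37) and -0.34 in L2P (-0.75 to 0.07). The second Hoxa5 probe set likewise stayed high, at 5.97, 5.95 and 5.82 in M1P, 6.22, 6.28 and 5.87 in L1P, and 6.12, 6.12 and 6.07 in L2P, and no passaged line was called against E1KD in the fit of single probe sets, which called 19.7% of them in M1P, 1.46% in L1P and 2.24% in L2P. The second Hoxb3 set ran from 2.26 to 2.70 over the 9 arrays of passaged lines, and was not called either. Only L2P array 1, at 2.70, was above the lowest E1KD array (2.62), and the other 8 were below all E1KD arrays.

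Hoxb13 gave 4.69, 3.88 and 3.77 in M1P, 3.88, 4.25 and 3.90 in L1P, and 3.52, 3.77 and 3.66 in L2P. Every passaged array was lower than every E1KD array, and all but M1P array 1 were below the off-gene level. Hoxb13 fell by 1.34 ± 0.26 in L1P (2.54-fold, limma adjusted p 0.0139) and fell by 1.71 ± 0.26 in L2P (3.26-fold, adjusted p 0.00187). These folds may be compressed, since the lung signals were all below the off-gene level. The L2P call held under all 24 alternatives. The L1P call was lost when E1KD array 1 (adjusted p 0.0619), E1KD array 3 (0.0799), L1P array 1 (0.0719) or L1P array 3 (0.0679) was left out.

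Hoxb6 (Entrez gene 15414, chromosome 11), a gene of the trunk part of the Hoxb cluster, read 4.03, 4.88 and 4.54 in NMuMG and 3.95, 3.61 and 3.90 in E1KD. It read 2.68, 2.53 and 2.39 in L1P and 2.92, 2.59 and 2.61 in L2P. The lung lines were lower on every array than E1KD. Hoxb6 fell by 1.29 ± 0.19 in L1P (2.45-fold, limma adjusted p 0.00199) and fell by 1.12 ± 0.19 in L2P (2.17-fold, adjusted p 0.00427), and both calls held under all 23 alternatives. All E1KD and lung values were below the off-gene level. Neither side was thus distinguished from genes thought to be off, and the size of these folds is uncertain.

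Hoxa5, Hoxa7, Hoxa9 and Hoxc9, which were above the off-gene level in all lines, were not called in either lung line. Hoxa7 read 5.20, 5.22 and 5.26 in L1P and 5.20, 4.93 and 5.13 in L2P, below all E1KD arrays. Its difference from E1KD was -0.33 in L1P (95% interval -0.75 to 0.08, limma adjusted p 0.682) and -0.48 in L2P (-0.89 to -0.06, adjusted p 0.306), where 1 of 24 alternatives called it. For Hoxa5, Hoxa9 and Hoxc9 the differences from E1KD were 0.19, -0.28 and -0.21 in L1P and 0.26, -0.18 and -0.18 in L2P. Irx5 read 5.42, 5.74 and 5.58 in L1P and 5.84, 5.49 and 5.59 in L2P, against 6.25, 6.16 and 6.32 in E1KD. It was lower on every lung array, with differences of -0.66 in L1P and -0.61 in L2P, but missed the threshold (limma adjusted p 0.0813 and 0.0964). With no M1P arrays in the model the adjusted p was 0.0135 in L1P and 0.0174 in L2P.

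**Figure D4:**
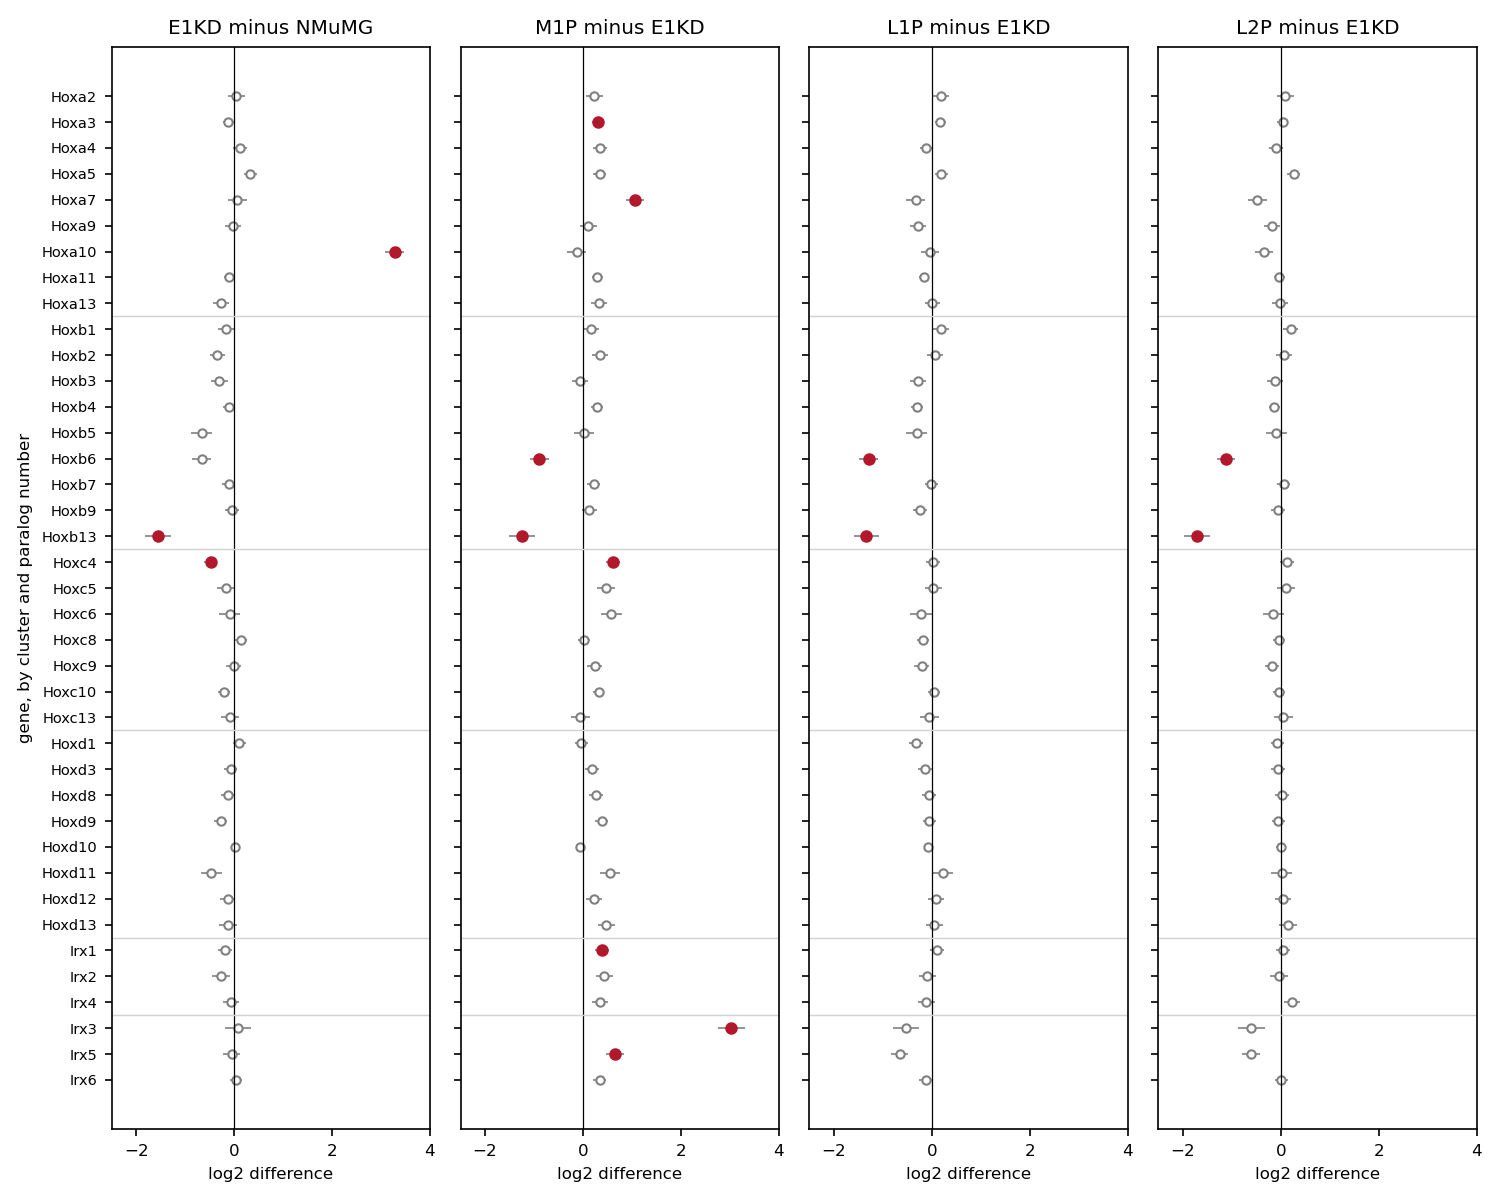
Log2 difference ± SE for each of the 39 members in 4 comparisons, ordered by cluster and paralog number, with filled red points for members called at an adjusted p under 0.05 and open grey points for the rest. Called points number 3, 8, 2 and 2 from left to right, and Hoxb13 is called in all 4 panels.

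L2P and L1P, the lung lines of the second and the first passage, were compared to ask whether a further passage moved the code. No member was called by limma, 0 of 39, against 0.143% of all genes, and none had an unadjusted p under 0.05, against 2.28% of all genes. The count was also 0 under each alternative run. Hoxb13 had the largest difference among members, -0.36 (95% interval -0.93 to 0.21), followed by Irx4 at 0.35 (-0.03 to 0.72) and Hoxa10 at -0.30 (-0.71 to 0.11). The intervals allow differences as large as their bounds.

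The tumour line M1P was compared with E1KD to ask the same of growth in the fat pad. Irx3 rose by 3.03 on the log2 scale. Hoxa7 rose by 1.06, Irx5 by 0.66, Hoxc4 by 0.61, Irx1 by 0.39 and Hoxa3 by 0.30. Hoxb13 fell by 1.24 and Hoxb6 fell by 0.89. These are 8 of 39 members (20.5%), against 27.6% of all genes, and the median difference was 0.29 for members and 0.20 for all genes. All 6 Irx genes had higher means in M1P, with a median difference of 0.42, and 3 of them were called. Of all 18193 genes, 12747 had higher means in M1P. The count of members called was 5 without M1P array 1 or without E1KD array 2, and 14 without M1P array 3. The share of all genes called in those fits is not given, so whether these moves are particular to the members cannot be told.

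Irx3 (Entrez gene 16373, chromosome 8) read 5.05, 4.56 and 5.03 in E1KD and 4.52, 5.13 and 4.74 in NMuMG, close to the off-gene level. In M1P it read 8.34, 7.93 and 7.47. The M1P arrays were far above all others, array 3 being the lowest of them. The rise of 3.03 ± 0.27 from E1KD is 8.17-fold, with an adjusted p of 3e-05 from limma, and it was called under all 23 alternatives. With M1P array 3 alone the rise was 2.58 (adjusted p 0.00181).

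Hoxa7 (Entrez gene 15404, chromosome 6), a trunk gene of the Hoxa cluster, read 5.64, 5.37 and 5.45 in NMuMG, 5.89, 5.33 and 5.46 in E1KD and 6.96, 6.74 and 6.16 in M1P. All M1P arrays were above all E1KD arrays. Its rise of 1.06 ± 0.19 (2.08-fold, limma adjusted p 0.00437) was 0.60 with M1P array 3 alone and was then not called (0.119). Irx5 (Entrez gene 54352, chromosome 8), which is known to act with Irx3 in heart and limb, read 6.22, 6.53 and 6.14 in NMuMG and 6.91, 7.27 and 6.53 in M1P. It lay above the E1KD arrays by 0.66 ± 0.18 (1.58-fold, adjusted p 0.0217), and by 0.28 with M1P array 3 alone, which was not called (0.455). Its call was also lost without M1P array 1 (0.0549), M1P array 2 (0.0561) or E1KD array 2 (0.0847). With array weights in limma, Irx5 (adjusted p 0.514) and Hoxa7 (0.187) both lost their calls. They also lost them with only the lines compared in the model (0.147 and 0.123).

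The windows before the single listed starts of Hoxa7 and Irx3 are shown as the start regions of the members that rose most in M1P. They were read from the same RefSeq table (GRCm38.p6), on the minus strand, at chr6:52218574-52218823 and chr8:91801655-91801904. No letters are capitalised, because neither window holds any of the 4 motifs searched, which says only that those letters are not in these bases. CpG pairs numbered 7 and 13.
Hoxa7: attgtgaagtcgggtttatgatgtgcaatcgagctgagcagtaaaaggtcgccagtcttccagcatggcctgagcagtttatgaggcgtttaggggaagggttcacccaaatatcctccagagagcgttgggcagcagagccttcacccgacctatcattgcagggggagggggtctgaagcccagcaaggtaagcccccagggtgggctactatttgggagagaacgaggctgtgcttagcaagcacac
Irx3: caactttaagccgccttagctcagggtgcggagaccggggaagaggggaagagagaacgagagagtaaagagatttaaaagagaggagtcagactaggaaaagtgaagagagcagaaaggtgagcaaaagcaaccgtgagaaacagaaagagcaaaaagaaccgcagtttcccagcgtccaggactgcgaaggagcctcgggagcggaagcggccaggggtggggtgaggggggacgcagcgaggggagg

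Hoxc4 read 4.09, 3.74 and 3.96 in M1P, above all E1KD arrays and overlapping the NMuMG arrays. Its call in M1P was lost with array weights (limma adjusted p 0.192) and with only the lines compared in the model (0.122). Its rise of 0.61 ± 0.14 (limma adjusted p 0.0108) had an adjusted p of 0.0658 with M1P array 3 alone. Irx1, read at 4.36, 4.10 and 4.21 in M1P against 4.02, 3.60 and 3.88 in E1KD, was called under 7 of 22 alternatives (adjusted p 0.0468). Hoxa3, read at 4.28, 4.18 and 4.15 against 3.76, 3.93 and 4.02, was called under 3 of 22 (adjusted p 0.0495). Neither was called with M1P array 3 alone, Irx1 being at 0.38 (limma adjusted p 0.27) and Hoxa3 at 0.25 (0.384). Both stayed below the off-gene level, and their arrays did not overlap.

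Hoxb6 read 3.09, 2.95 and 2.75 in M1P, below all E1KD arrays, a fall of 0.89 ± 0.19 (1.86-fold, limma adjusted p 0.00944). Hoxb13 fell by 1.24 ± 0.26 (2.37-fold, adjusted p 0.00872). Both calls were lost with array weights (limma adjusted p 0.199 for Hoxb6 and 0.129 for Hoxb13). They were also lost with only the lines compared in the model (0.0965 and 0.123). With M1P array 3 alone Hoxb6 fell by 1.07 (adjusted p 0.0471) and Hoxb13 fell by 1.59 (adjusted p 0.0149). The only 3 members called in that fit were Irx3, Hoxb13 and Hoxb6, where 4.45% of all genes were called. In the fit of single probe sets, a set shared by Hoxd4 and Hoxd3 rose by 0.39 (adjusted p 0.0454) and a second Hoxc5 set by 0.52 (adjusted p 0.0212). From M1P array 3 alone these sets were at 0.27 (0.448) and 0.35 (0.325) and not called, and the shared set was called under 6 of 20 alternatives.

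Against M1P, L1P had lower signals for 37 of 39 members, with a median of -0.33, against -0.25 for all genes. Of all 18193 genes, 13010 were lower in L1P. A total of 12 members fell (30.8%), against 39.5% of all genes called and 25.9% that fell, and none rose. All 3 genes of the Irx3 cluster were among them. The count was 7 without M1P array 1, 6 without L1P array 3 and 20 without M1P array 3. For these 3 fits the share of all genes called is not given, and whether the moves are particular to the members cannot be told. With M1P array 3 alone only Irx3, Irx5 and Hoxa7 were called, against 7.29% of all genes. Irx3 fell by 3.56 ± 0.27 (11.8-fold, limma adjusted p 9.7e-06) and fell by 3.12 with array 3 alone. The L1P mean of 4.35 is below the off-gene level, so this fold may be compressed. Irx5 fell by 1.32 (adjusted p 0.000583) and fell by 0.95 with array 3 alone. Hoxa7 fell by 1.39 (adjusted p 0.000666) and fell by 0.93 with array 3 alone.

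**Figure D5:**
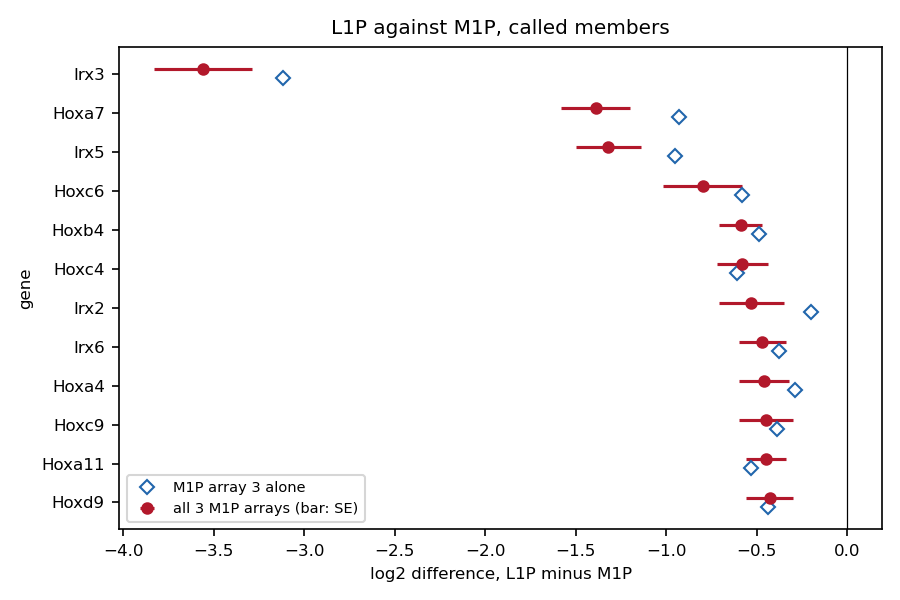
Log2 difference of L1P minus M1P for the 12 members that were called, with all 3 M1P arrays as red points and bars of 1 SE, and with M1P array 3 alone as open blue diamonds. Irx3, Hoxa7 and Irx5 lie farthest from 0 in both versions, at -3.56, -1.39 and -1.32 with all arrays.

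Genes around the Hox pathway were also read in M1P. Of 25 Polycomb genes, 3 rose and 8 fell from E1KD to M1P, with a median of -0.28. Over all 18193 genes, 3221 rose and 1794 fell, with a median of 0.20, and the counts of the lists that follow stand beside that background. The largest falls were Phc3 (-2.61, adjusted p 0.00589) and Suz12 (-2.57, 0.0223), the latter a core subunit of PRC2, and the largest rises were Cbx7 (1.21, 0.0129) and Cbx8 (0.86, 0.0169). With M1P array 3 alone these 4 were -1.66, -1.12, 0.50 and 0.60 and were not called. Of the 11, Aebp2 and Pcgf6 remained called there, at -0.93 (limma adjusted p 0.0136) and -0.78 (0.0455). Of 15 Trithorax and other activators, 4 fell, with Kdm6a, an H3K27 demethylase, at -2.23 and Kat6a, a histone acetyltransferase, at -1.98. These were -1.24 and -1.14 with array 3 alone, where none of the 4 was called. The list's median was -0.20.

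Among the 19 retinoic acid and Cdx genes, 3 rose in M1P and none fell, with a median of 0.34. Stra6, the membrane receptor for retinol-binding protein, rose by 2.97 (7.85-fold, limma adjusted p 0.000228) and by 1.87 with array 3 alone (0.000468). Cdx2, a posterior homeobox gene that acts on Hox clusters, rose by 1.59 (3.01-fold, adjusted p 0.00267) and by 0.81 with array 3 alone (0.0484). Both were lower again in L1P than in M1P, with Stra6 at -3.48 and Cdx2 at -1.66. With array 3 alone they were at -2.37 and -0.88 and still called (limma adjusted p 5.95e-05 and 0.0266).

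Of the 8 TALE cofactors, Pbx4 rose in M1P (0.67), and Meis2 (-0.73) and Pbx3 (-0.66) fell, with a list median of -0.04. With array 3 alone they were at 0.15, -0.79 and -0.44, and none was called (limma adjusted p 0.727, 0.0513 and 0.213). From M1P to L1P, 3 cofactors rose and 2 fell, against 2466 and 4720 of all genes. Meis1 rose by 1.23 and Meis2 by 1.03, and both were called with array 3 alone, at 1.23 (0.0409) and 1.10 (0.0108). Pbx4 (-0.61) and Meis3 (-0.53) fell, and with array 3 alone they were at -0.09 and -0.31 and not called.

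Among 26 genes beside the clusters 4 rose and 4 fell in M1P, with a median of 0.10. The largest rise was Calcoco1 (0.89, and 0.27 with M1P array 3 alone) and the largest fall was Atf2 (-2.41, and -0.75). Evx2, the homeobox gene next to Hoxd13, rose by 0.59, and Cbx5, beside the Hoxc cluster, fell by 2.40. With array 3 alone they were at 0.76 (limma adjusted p 0.0606) and -0.69 (0.429), and none of the 8 was called. Among 19 other patterning genes 4 rose and 1 fell, with a median of 0.20, Msx1 at 0.55 and Six4 at -0.71. With array 3 alone these were at 0.40 (0.236) and -0.44 (0.205), and none of the 5 was called. In the lung lines these 2 lists gave no call against E1KD, with at most 3 genes at an unadjusted p under 0.05. Ash2l rose in L1P (0.60, limma adjusted p 0.0147) and in L2P (0.83, 0.000956), Cyp26b1 and Cbx7 rose in L2P (0.97, 0.0162, and 1.30, 0.0193), and Pcgf5 fell in L1P (-0.63, 0.0311). No gene of the 6 lists was called between L2P and L1P by limma, with 2 retinoic acid genes and 1 Polycomb gene at an unadjusted p under 0.05.

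Markers of cells that a tumour or lung isolate could hold were read beside these results. The mammary epithelial list had array means of 8.38 to 8.55 in NMuMG and 7.59 to 8.30 in the silenced lines, with Krt7 at -5.46 in E1KD against NMuMG (limma adjusted p 2.22e-07) and Krt19 at 0.68 in M1P against E1KD (0.32 and not called with array 3 alone). Of 8 fibroblast markers, Col1a2 rose in M1P (1.09, limma adjusted p 0.0464; 0.39 and not called with array 3 alone), and the array means of the list ran from 3.47 to 4.16 in M1P and from 3.23 to 3.35 in E1KD. Of 6 alveolar and airway markers, Foxj1, a factor of ciliated cells, rose in M1P by 1.99 (adjusted p 0.00397; 0.90 with array 3 alone, 0.0472) and Ager by 0.46 (0.41 and not called with array 3 alone). Sftpc, Sftpa1 and Scgb1a1, which define alveolar and club cells, were below the off-gene level in every line. The other 3 of the list, Sftpb, Foxj1 and Ager, were above it in every line, NMuMG included. The list's array means were 4.66 to 5.39 in M1P, 4.31 to 4.46 in E1KD and 4.0 to 4.41 in the lung lines. Of 5 endothelial markers only Kdr was called (0.57 in M1P; 0.38 and not called with array 3 alone). Of 5 leukocyte markers none was called against E1KD, 2 to 4 lay above the off-gene level, and Ptprc lay below it in every line. None of 3 adipocyte markers was above it in any line. From M1P to L1P, 2 of 10 epithelial, 3 of 8 fibroblast, 2 of 5 leukocyte and 3 of 6 alveolar and airway markers fell, and none of these lists had a rise. Of all genes, 25.9% fell and 39.5% were called in this comparison. Whether the shares of such short lists differ from that was not tested. The leukocyte falls were Csf1r (-0.56) and Cd3e (-0.46), and Foxj1 had the largest fall of the markers, -2.66. With array 3 alone Foxj1 (-1.56, limma adjusted p 0.00281) and Sftpb (-0.63, 0.0394) were called and the other 8 were not. The part of these markers in the M1P results was not tested.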

How the data were processed

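The deposited table holds log2 signals for 45101 probe sets on 15 arrays, 3 from each of 5 lines, made by the authors with RMA, MAS5 and the Affymetrix Expression Console per the submitters' processing notes. No version of these tools was at hand. The table was used without further normalization. Arrays have no read depth, and 3 arrays per line limit the precision. Per the labels' protocols, 100 ng of total RNA was amplified per array.

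By the platform annotation 34945 probe sets carry 1 symbol, 932 carry several, 9160 carry none and 64 are controls. Symbols were updated by Entrez identifier through a RefSeq table (GRCm38.p6) for 34741 of them and kept for 204. Each of 18193 genes was read from its probe set with the highest mean. Of the members' probe sets, 15 more had 1 symbol and 3 were shared.

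All genes were fitted with limma 3.58.1 in R 4.3.3, in a model of the line means with 10 residual and 2.98 prior degrees of freedom, and all lines shared 1 estimate of spread. Two-sided moderated tests covered 6 comparisons and 2 F tests covered the lines, with Benjamini-Hochberg adjustment over all genes. Members are said to have risen or fallen at an adjusted p under 0.05. The fit was tested on simulated data. Alternatives changed the probe set, scaling, dim-gene filter, spread model, array weights, samples, replicate block and arrays in turn.

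Members called in any comparison or above the off-gene level were named, with array values for called members described singly. From each context list at most the 2 largest called rises and falls were named per comparison. Aebp2 and Pcgf6 in M1P were named beyond that. The members and lists were chosen with earlier results of these data known. Testing every probe set on its own was added after seeing the data.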

Additional observations from a re-analysis of the deposited data

Results flagged for a closer look

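L1P and M1P, both recovered from mice that had received E1KD, differed from each other in 12 members by a direct limma test, and all 12 were lower in L1P. Irx3 differed most, at -3.56 on the log2 scale, followed by Hoxa7 at -1.39 and Irx5 at -1.32. The others were Hoxc6 at -0.80, Hoxb4 at -0.59, Hoxc4 at -0.58, Irx2 at -0.53, Irx6 at -0.47, Hoxa4 at -0.46, Hoxa11 at -0.45, Hoxc9 at -0.45 and Hoxd9 at -0.43. Over all genes, 25.9% fell in the same comparison, with a median of -0.25. With M1P array 3 alone, Irx3 (-3.12, adjusted p 0.00051), Irx5 (-0.95, 0.0143) and Hoxa7 (-0.93, 0.0187) were called and the other 9 were not.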

How the results depend on the processing

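The 27 called pairs of a member and a comparison gave 615 values under alternatives. Direction and call stayed in 502, the call was lost in 113, and no direction turned. The 8 pairs called under every alternative run for them were Hoxa10 and Hoxb13 in E1KD against NMuMG, Hoxb6 in L1P and in L2P and Hoxb13 in L2P against E1KD, and Irx3 in M1P against E1KD, and Irx3 and Irx5 in L1P against M1P.

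Counts of members called moved as follows, and the cause was not tested. For most settings here and in the next paragraph the share of all genes called is not given. Whether these moves are particular to the members therefore cannot be told. With array weights, 9 members were called in E1KD against NMuMG, 1 in M1P, 5 in L1P and 6 in L2P against E1KD, and 2 in L1P against M1P. With the probe set of largest variance, 6 were called in E1KD against NMuMG. With only the lines compared in the model, 1 was called in M1P against E1KD and 3 in L1P against M1P. With M1P array 3 alone, 3 and 3 were called in these comparisons and 5 differed among the 4 silenced lines. With only genes above the array median, which left 12 members to test, 4 were called in M1P, 1 in L1P and 1 in L2P against E1KD, and 6 in L1P against M1P. With the off-gene level at the 99th percentile 7 members lay above it, and the share of all genes there is not given.

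Leaving out 1 array gave 2 to 4 members in E1KD against NMuMG, 5 to 14 in M1P, 1 to 3 in L1P and 2 to 3 in L2P against E1KD, 0 in L2P against L1P, 6 to 20 in L1P against M1P, 8 to 15 over the 5 lines and 5 to 12 over the silenced lines. Same-numbered arrays of different lines correlated in their deviations at a median of 0.115, from -0.496 to 0.755 over 30 pairs. Arrays of other numbers did so at a median of -0.081, from -0.769 to 0.656 over 60 pairs. The ranges overlapped widely and the numbers were not taken to pair the arrays, but a pairing is not excluded by these values. With the replicate number as a block, 13 members were called in M1P against E1KD and 15 differed among the silenced lines. Signals near the off-gene level limit what falls from low values can show.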
